A study of Mus musculus with 8 samples.

Results

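The 10 genes described here encode the protein cap of mouse telomeres and the enzyme that extends them: the shelterin subunits Terf1, Terf2, Terf2ip, Pot1a, Pot1b, Tinf2 and Acd, the telomerase proteins Tert and Dkc1, and the helicase Rtel1. They were chosen by name, each through the brightest probe set that carries only its symbol in the platform annotation. All 10 were measured, with 1 such probe set each, among 19938 genes and 28939 tested probe sets. The data are 8 Affymetrix arrays of total RNA from cultured spermatogonial stem cells of the mouse, which renew themselves and feed sperm production, and the study compared cells that differ in donor and in time in culture. In 2 arrays the cells were from a line kept by serial transplantation into recipient testes, with a labelled donor age of 1500 days and 14 to 18 months of culture (serial transplant, long culture). Another 3 arrays held cells of donors of 8 days after the same 14 to 18 months (young donor, long culture), and the last 3 held cells of donors of 8 days after 7 to 10 weeks (young donor, short culture). What the 1500 days refer to is not in the labels. In the first group donor age and serial transplantation cannot be told apart, and no serial-transplant cells were cultured for the short time. Whether arrays of a group stand for separate donors or separate cultures is not in the labels, and the p-values therefore reflect only the array-to-array spread, which may be technical. The number of arrays, 2 or 3 a group, limits the precision of every value.

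Telomeres are repeats at chromosome ends that shorten when DNA is copied unless telomerase adds them back, and shelterin is the protein complex that covers the repeats, hides them from DNA damage signalling and controls the access of telomerase. Within shelterin, Terf1 and Terf2 hold double-stranded repeats, Terf2ip (Rap1) rides on Terf2, the Pot1 proteins hold the single-stranded overhang, Acd (TPP1) carries Pot1 and recruits telomerase, and Tinf2 (TIN2) ties these parts together. Tert is the reverse transcriptase that copies the RNA template Terc, and Dkc1 (dyskerin) stabilises that RNA. Rtel1 unwinds loops and G-quadruplexes at telomeres during replication. Telomerase is active in dividing germ cells and low in most differentiated tissues, and rodents carry a duplicated Pot1 gene, of which Pot1a mainly represses the damage response at telomeres and Pot1b limits resection of the overhang.

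With both long-culture groups weighted equally, the genes that differed most from short culture were Tert, Pot1a, Pot1b and Terf2. The differences of these 4 from short culture were positive in both long-culture groups, as were the smaller ones of Tinf2 and Dkc1. For these 4 the 250 bases before the start of each are shown, as RefSeq gives them for mouse assembly GRCm38.p6. They read 5′ to 3′ on the gene's own strand. Pot1a lies on the minus strand (window chr6:25809219-25809468), as do Pot1b (chr17:55712637-55712886) and Terf2 (chr8:107096546-107096795), and Tert lies on the plus strand (chr13:73626661-73626910). Pot1b and Terf2 each have 2 starts in the table, of which 1 is shown. Capitals mark letters of the motifs searched on both strands.
Pot1a: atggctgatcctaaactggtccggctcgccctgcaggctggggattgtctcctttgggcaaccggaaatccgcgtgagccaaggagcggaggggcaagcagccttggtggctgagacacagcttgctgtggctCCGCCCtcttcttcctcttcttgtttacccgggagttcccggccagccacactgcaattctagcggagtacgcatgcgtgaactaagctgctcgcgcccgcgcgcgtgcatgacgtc
Pot1b: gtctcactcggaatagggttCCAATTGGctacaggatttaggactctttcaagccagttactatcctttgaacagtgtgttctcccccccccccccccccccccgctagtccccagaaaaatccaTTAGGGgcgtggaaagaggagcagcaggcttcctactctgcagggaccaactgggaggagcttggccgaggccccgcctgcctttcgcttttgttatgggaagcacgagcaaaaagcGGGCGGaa
Tert: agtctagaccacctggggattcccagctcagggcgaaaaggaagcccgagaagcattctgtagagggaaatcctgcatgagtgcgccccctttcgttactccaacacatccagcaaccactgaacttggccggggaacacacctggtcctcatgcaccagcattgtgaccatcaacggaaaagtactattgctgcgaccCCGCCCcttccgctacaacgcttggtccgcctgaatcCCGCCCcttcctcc
Terf2: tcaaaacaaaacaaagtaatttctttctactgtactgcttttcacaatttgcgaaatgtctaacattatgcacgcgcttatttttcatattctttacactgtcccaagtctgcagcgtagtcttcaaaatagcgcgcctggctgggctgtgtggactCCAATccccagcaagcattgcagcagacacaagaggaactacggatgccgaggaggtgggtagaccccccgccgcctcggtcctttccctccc
A window was found for 9 of the 10 genes, Terf1 being the other. The GC box GGGCGG was present in 4 of the 9 windows, those of Pot1a, Pot1b, Tert with 2 matches and Rtel1, and in 32.9% of all 27025 windows of the same length. The box CCAAT was present in 3 of 9, those of Terf2, Acd and Pot1b, and in 34.5% of all windows, and its 2 matches in Pot1b overlap on opposite strands. The telomere repeat unit TTAGGG was found in 1 of 9, that of Pot1b, and in 9.25% of all windows. The E-box CACGTG, the sequence bound by Myc and its relatives, was in none of the 9 and in 6.05% of all windows. The shown windows hold 61.6% G and C in Pot1a, 56.8% in Pot1b, 57.2% in Tert and 48.8% in Terf2, where the median window holds 52%. These matches describe the letters alone, and no binding was measured.

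All 10 genes had a mean signal above 6.94, the median over all probe sets on the log2 scale of the deposited values. Terf2ip lay nearest to it, with values between 7.17 and 7.42. These levels describe each probe set alone, since probe sets differ in brightness for reasons other than RNA amount. In whole-culture RNA, fewer cells of a type and less RNA per cell cannot be told apart.

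One array differed from the other arrays in a way that touches most of these genes. The second young short-culture array had the lowest value of all 8 arrays in 9 of the 10 genes, all except Terf2ip, against 22.3% of all probe sets and 36.3% of those brighter than the median. Its mean correlation with the other arrays of its group was 0.991, and its array weight in limma was 0.328. Fibroblast genes were highest on that array, with a median deviation of 1.01 log2 units over 16 genes from their means over all arrays, and genes of dividing cells were lowest there, at -0.47 over 17 genes. The median deviation of the 10 telomere genes was -0.42 on that array and lay between -0.05 and 0.11 on the other 7. The array was kept, and values without it stand beside the results they alter most.

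**Figure D1:**
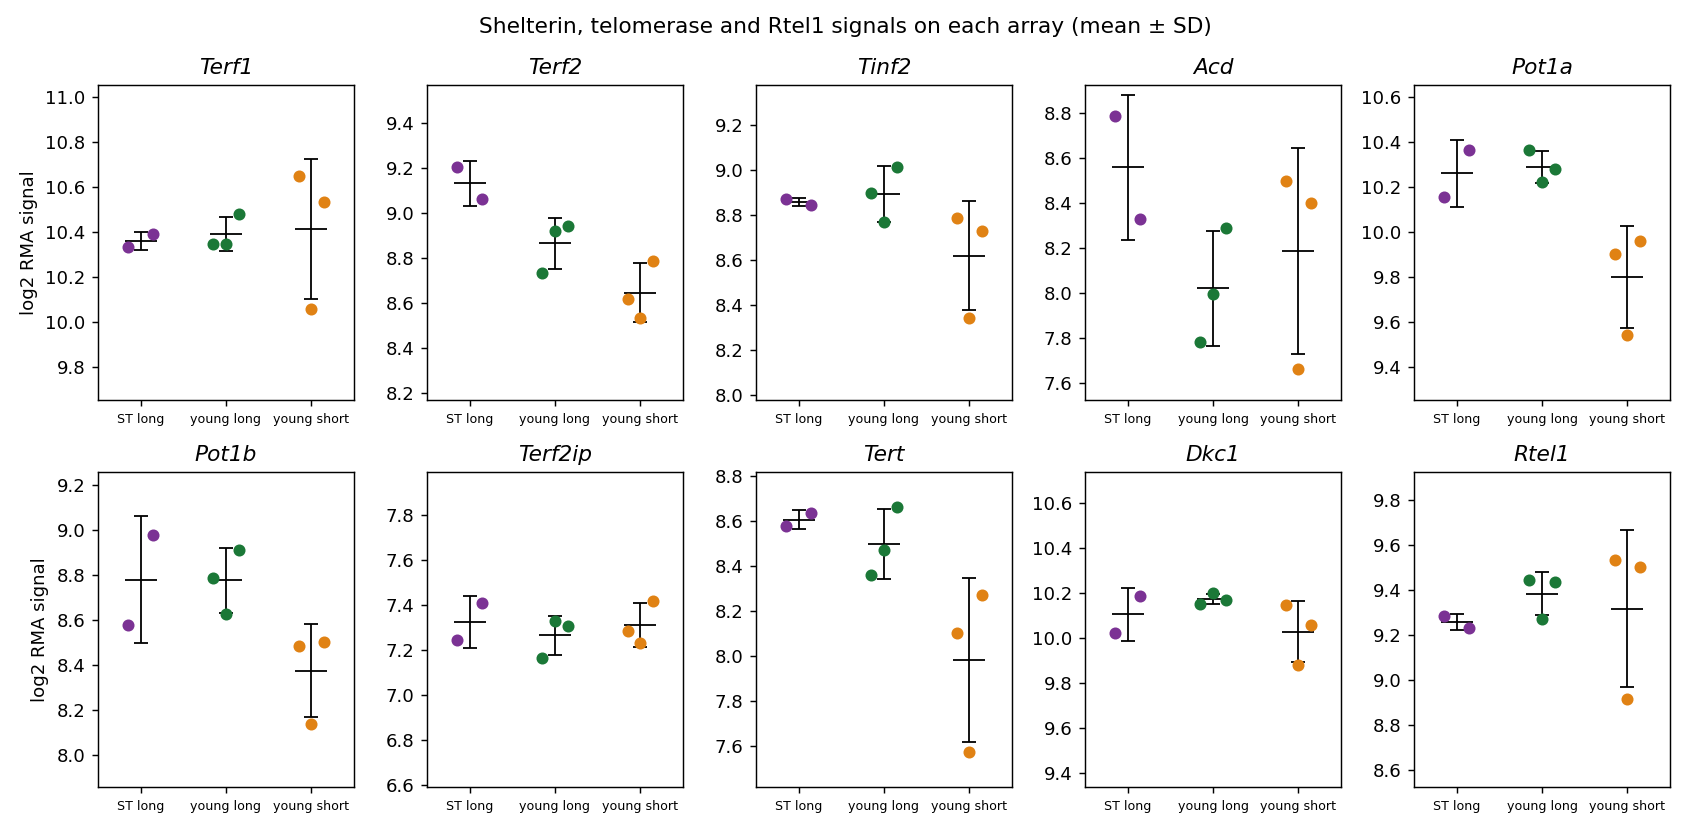
Log2 signal of the 10 genes on each array, 1 panel a gene, with points for arrays and bars for group means and SD, in the order serial transplant long culture (ST long, n = 2), young long culture (n = 3) and young short culture (n = 3). All 5 long-culture arrays lie above all 3 short-culture arrays for Pot1a, Pot1b and Tert, and the second short-culture array is the lowest point in 9 of the 10 panels.

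Young-donor cells in long culture were set against young-donor cells in short culture, groups whose labels differ in time in culture. Of the 10 genes, 1 rose and none fell (limma, Benjamini-Hochberg adjusted p under 0.05 over all 28939 probe sets): Pot1a, by 0.49 ± 0.12 log2 units (SE), or 1.40-fold. The same test called 11.3% of all probe sets, 5.44% higher and 5.83% lower, so a count of 1 in 10 is near the background. Tert stood 0.52 ± 0.16 log2 units higher and Pot1b 0.40 ± 0.14, and neither passed (limma adjusted p = 0.0628 and 0.0916). The differences of the 10 genes had a median of 0.18 log2 units, where the median over all probe sets was -0.04 and over those brighter than the median 0.05. They were positive for 7 of the 10 genes, for 43.2% of all probe sets and for 56.6% of the brighter ones. An unadjusted p under 0.05 was found for 3 of the 10, 26.0% of all probe sets and 36.0% of the brighter ones. Without young short-culture replicate 2 the median of the 10 was 0.10 with 6 positive. The brighter probe sets then had a median of 0.02 with 52.9% positive.

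Serial-transplant cells in long culture against the same young short-culture cells gave 1 rise of 10 and no fall: Terf2, by 0.49 ± 0.12 log2 units (SE), or 1.40-fold (limma adjusted p = 0.0294). The background was 8.74% of all probe sets, 3.58% higher (6.09% of those brighter than the median) and 5.15% lower, so this count too is near the background. Tert was 0.62 ± 0.18 log2 units higher, Pot1a 0.46 ± 0.14 and Pot1b 0.40 ± 0.16, none past the threshold (limma adjusted p = 0.0549, 0.0659 and 0.152). The median over the 10 genes was 0.30 log2 units, beside 0.04 over probe sets brighter than the median. Differences were positive for 8 of the 10, 49.3% of all probe sets and 56.9% of the brighter ones. An unadjusted p under 0.05 was found for 4 of the 10, 21.9% of all probe sets and 31.9% of the brighter ones. Without young short-culture replicate 2 the median of the 10 was 0.10 with 7 positive. The brighter probe sets again had a median of 0.02, with 53.5% positive. The long-culture comparisons share the 3 short-culture arrays, so their values are not independent of each other.

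Serial-transplant against young donor, both in long culture, gave no call among the 10 genes and none among all 28939 probe sets (0.00% called by limma). At an unadjusted p under 0.05 there were 2 of the 10 genes, Acd and Terf2, and 7.18% of all probe sets, and 5 of the 10 had a positive difference, beside 54.6% of all probe sets. Acd, the subunit that recruits telomerase, was 0.54 ± 0.24 log2 units higher and Terf2 0.27 ± 0.12 higher in serial-transplant cells (limma adjusted p = 0.685 and 0.687). For the other 8 genes the difference lay between -0.13 (Rtel1) and 0.11 (Tert), with 95% intervals of -0.33 to 0.28 for Pot1a, -0.34 to 0.35 for Pot1b and -0.29 to 0.50 for Tert.

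**Figure D2:**
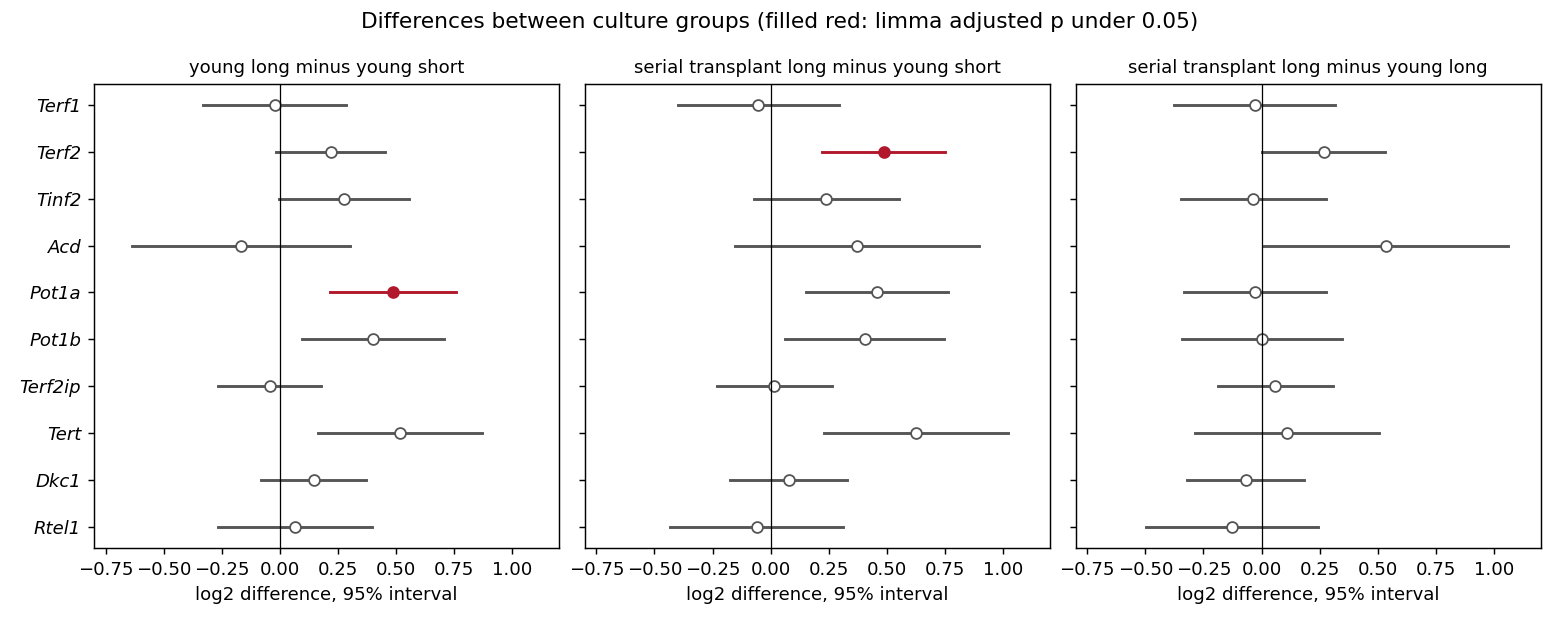
Log2 difference of each gene in the 3 comparisons, with points for the estimate and lines for the 95% interval from limma, and filled red points for adjusted p under 0.05. Only Pot1a in young long minus young short (0.49) and Terf2 in serial-transplant long minus young short (0.49) are filled.

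The proteins on the single-stranded overhang come first. Pot1a, on chromosome 6, had log2 signals of 10.15 and 10.36 on the serial-transplant arrays, 10.36, 10.22 and 10.28 on the young long-culture arrays, and 9.90, 9.54 and 9.96 on the young short-culture arrays. All 5 long-culture arrays lay above all 3 short-culture arrays, and the long-culture groups overlapped. Group means were 10.26 ± 0.15 in serial transplant (SD, n = 2), 10.29 ± 0.07 in young long culture (SD, n = 3) and 9.80 ± 0.23 in young short culture (SD, n = 3). The rise in young long culture had a 95% interval of 0.21 to 0.76 log2 units and a limma adjusted p of 0.0292. The call was kept in 9 of 13 separate alternatives, over which the adjusted p ran from 0.0164 to 0.107. It was lost when young long-culture replicate 1, 2 or 3 was dropped (limma adjusted p = 0.107, 0.0559 and 0.0959) and without young short-culture replicate 2, where the difference was 0.36 log2 units and the adjusted p 0.0625.

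Pot1b, on chromosome 17, followed with 8.58 and 8.98 in serial transplant, 8.79, 8.63 and 8.91 in young long culture, and 8.49, 8.14 and 8.50 in young short culture. Again each long-culture array was above each short-culture array, with the lowest long-culture value close to the highest short-culture one. Means were 8.78 ± 0.28 in serial transplant (n = 2), 8.78 ± 0.14 in young long culture and 8.38 ± 0.20 in young short culture (SD, n = 3 each). Of the 13 separate alternatives for young long against young short culture, 1 called it, the fit with array weights, at a limma adjusted p of 0.0412. Whether the probes of either Pot1 gene also bind the RNA of the other was not tested.

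Since both Pot1 genes were higher in long culture, the value of Pot1a minus that of Pot1b was taken within each array. It was 1.57 and 1.38 in serial transplant, 1.57, 1.59 and 1.36 in young long culture, and 1.42, 1.40 and 1.45 in young short culture, and the groups overlapped. Young long minus young short culture was 0.09 log2 units (exact permutation test, two-sided p = 0.4, smallest possible 0.1). Serial transplant minus young long culture was -0.03 and serial transplant minus young short culture 0.05 (exact permutation tests, two-sided p = 1 and 0.8, smallest possible 0.2). None of these tests could have reached 0.05, so they do not show whether the paralogs changed by unequal amounts.

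Among the telomerase proteins, Tert, the catalytic subunit on chromosome 13, had 8.58 and 8.64 in serial transplant, 8.36, 8.47 and 8.66 in young long culture, and 8.10, 7.58 and 8.27 in young short culture. The lowest long-culture value, 8.36, stood just above the highest short-culture value, 8.27, and the second short-culture array was far below the rest. Means were 8.61 ± 0.04 in serial transplant (n = 2), 8.50 ± 0.15 in young long culture and 7.98 ± 0.36 in young short culture (SD, n = 3 each). Without young short-culture replicate 2 the difference of young long from young short culture was 0.31 log2 units in place of 0.52 (limma adjusted p = 0.128), and that of serial transplant from young short culture 0.42 in place of 0.62 (limma adjusted p = 0.0746). Without young short-culture replicate 3 both passed, at 0.66 and 0.77 log2 units (limma adjusted p = 0.0228 and 0.0182). The adjusted p ran from 0.0228 to 0.223 with 5 calls in 13 separate alternatives for young long against young short culture, and from 0.0182 to 0.323 with 4 calls in 15 for serial transplant against young short culture.

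Dkc1, on the X chromosome, was among the steadiest of the 10 genes, with an SD of 0.110 log2 units over the 8 arrays. It had 10.02 and 10.19 in serial transplant, 10.15, 10.20 and 10.17 in young long culture, and 10.15, 9.88 and 10.06 in young short culture. The young long-culture arrays lay just above the short-culture arrays, by 0.15 ± 0.10 log2 units in the mean (SE; limma adjusted p = 0.409), and the serial-transplant arrays overlapped both groups. That difference was 0.07 without young short-culture replicate 2.

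Of the proteins on double-stranded repeats, Terf2, on chromosome 8, had 9.20 and 9.06 in serial transplant, 8.73, 8.92 and 8.94 in young long culture, and 8.62, 8.53 and 8.79 in young short culture. Both serial-transplant arrays were above all other arrays, and the young groups overlapped. Means were 9.13 ± 0.10 in serial transplant (n = 2), 8.86 ± 0.11 in young long culture and 8.65 ± 0.13 in young short culture (SD, n = 3 each). The rise in serial transplant against young short culture had a 95% interval of 0.22 to 0.75 log2 units and was called in 9 of 15 separate alternatives, with adjusted p from 0.0201 to 0.167 and a difference of 0.41 to 0.56. It was lost without serial-transplant replicate 1 or 2 (limma adjusted p = 0.167 and 0.153), young long-culture replicate 3 (0.0512), young short-culture replicate 1 or 2 (0.0733 and 0.0597), and with only the arrays of the compared groups (0.0698).

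Terf1, on chromosome 1, binds the same double-stranded repeats. Its values were 10.33 and 10.39 in serial transplant, between 10.35 and 10.48 in young long culture, and 10.65, 10.06 and 10.53 in young short culture. Both long-culture groups lay inside the range of the short-culture arrays, and the differences from short culture were -0.05 for serial transplant and -0.02 for young long culture (limma adjusted p = 0.901 and 0.936). They were -0.23 and -0.20 without young short-culture replicate 2 (limma adjusted p = 0.264 and 0.258). Terf2ip, the partner of Terf2, was the least variable of the 10, with an SD of 0.0864 log2 units over the arrays and differences between -0.04 and 0.06 in the 3 comparisons.

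Tinf2 and Acd link the subunits on double-stranded repeats to the Pot1 proteins. Tinf2, on chromosome 14, had 8.87 and 8.84 in serial transplant, 8.90, 8.77 and 9.02 in young long culture, and 8.79, 8.34 and 8.73 in young short culture. Both serial-transplant arrays were above the short-culture arrays, while the young long-culture arrays overlapped them. The differences from short culture were 0.24 ± 0.14 for serial transplant and 0.27 ± 0.13 for young long culture (SE; limma adjusted p = 0.381 and 0.199), and without young short-culture replicate 2 they were 0.10 and 0.14. Acd, on chromosome 8, was the most variable of the 10, with values over 1.12 log2 units. It had 8.78 and 8.33 in serial transplant, 7.78, 7.99 and 8.29 in young long culture, and 8.50, 7.66 and 8.40 in young short culture. Both serial-transplant arrays exceeded the young long-culture arrays, and the short-culture arrays spanned the young long-culture values and overlapped the serial-transplant ones. Its difference from short culture was 0.37 in serial transplant and -0.17 in young long culture, against 0.11 and -0.43 without young short-culture replicate 2, and none passed.

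Rtel1, on chromosome 2, had 9.28 and 9.23 in serial transplant, between 9.27 and 9.44 in young long culture, and 9.53, 8.92 and 9.50 in young short culture. The short-culture arrays alone covered the whole range of the gene, and with all arrays no comparison gave a difference beyond 0.13 log2 units in either direction. Without young short-culture replicate 2 the difference from short culture was -0.26 in place of -0.06 for serial transplant and -0.13 in place of 0.07 for young long culture, neither past the threshold.

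Counting genes whose arrays did not overlap, 4 of 10 were above in young long against young short culture (Pot1a, Pot1b, Tert and Dkc1), against 15.1% of all probe sets and 24.9% of those brighter than the median. In serial transplant against young short culture there were 5 of 10 (Terf2, Tinf2, Pot1a, Pot1b and Tert), against 18.9% and 27.6%. In serial transplant against young long culture there were 2 of 10 (Terf2 and Acd), against 14.9% of all probe sets and 14.5% of the brighter ones. None of the 10 was below in any comparison, while 16.3%, 18.4% and 10.8% of all probe sets were, in the same order. In both comparisons with short culture, 9 of the 10 could not have been below. Their lowest value of all arrays was on young short-culture replicate 2, so the absence there gives no direction for the 10 genes. An F test over the 3 groups called Pot1a alone (limma adjusted p = 0.0455), 1 of 10 where 10.0% of all probe sets were called, with Terf2 at 0.0566 and Tert at 0.0641.

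After these values had been seen, the long-culture groups were pooled with equal weight and set against short culture, 5 arrays against 3. This called 3 of the 10 genes higher and none lower, where 14.4% of all probe sets were called, 6.89% higher, and 11.9% of those brighter than the median were called higher. Pot1a was 0.47 ± 0.11 log2 units higher, Tert 0.57 ± 0.15 and Terf2 0.35 ± 0.10 (SE; limma adjusted p = 0.0168, 0.0233 and 0.0329), and Pot1b was 0.40 ± 0.13 higher at 0.0550. All 5 long-culture arrays exceeded all 3 short-culture arrays for 3 of the 10 genes, Pot1a, Pot1b and Tert, against 10.1% of all probe sets and 17.3% of the brighter ones. The count of 3 calls was 0 without serial-transplant replicate 2, 1 without young long-culture replicate 3, 1 without young short-culture replicate 2, and 2 or 3 without any other array. Without serial-transplant replicate 2 Pot1a was at 0.0774 and Tert at 0.0853, and Tert was also lost without serial-transplant replicate 1 (0.0516), young long-culture replicate 3 (0.0560) and young short-culture replicate 2 (0.0529), all limma adjusted p. Terf2 kept its call in 2 of the 8 fits with an array left out, those without young long-culture replicate 1 or young short-culture replicate 3, and the adjusted p of the other 6 ran from 0.0619 to 0.0973.

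**Figure D3:**
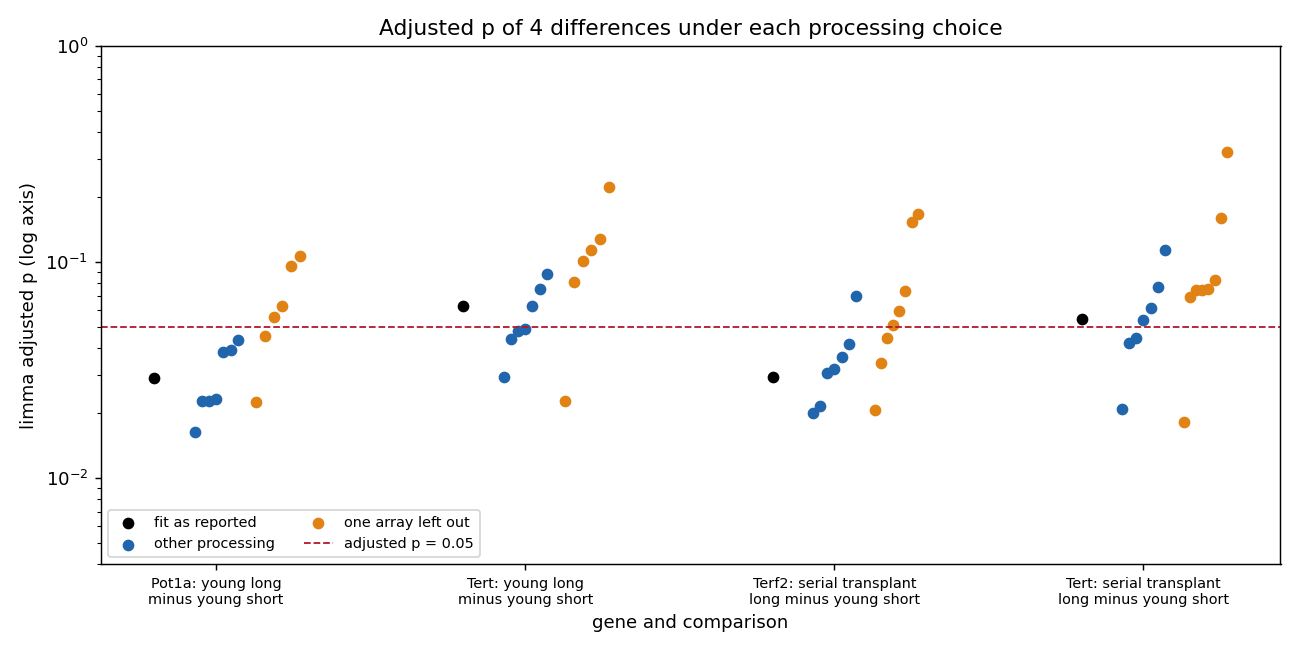
Limma adjusted p on a log axis for 4 differences (Pot1a and Tert in young long minus young short culture, Terf2 and Tert in serial-transplant long minus young short culture), with 1 point a setting (black as reported, blue other processing, orange an array left out) and a dashed line at 0.05. Pot1a in young long against young short culture falls under the line in 9 of 13 alternatives and Terf2 in serial transplant against young short culture in 9 of 15.

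Beyond these 10 genes, 48 genes that act on telomeres were examined. In young long against young short culture 9 of the 48 rose and none fell, with a median difference of 0.15 log2 units, where 5.44% of all probe sets and 9.21% of the brighter ones rose. Of the 9, 7 belong to the 17 genes of telomere replication, end processing and recombination, all 17 of which had a positive difference, with a median of 0.34. They are the checkpoint kinase Atr (0.78 log2 units), the recombination mediator Brca2 (0.67), the helicases Blm (0.59) and Wrn (0.56), the nuclease Exo1 (0.54), the Ku70 gene Xrcc6 (0.45) and the MRN subunit Rad50 (0.43). The others are Parn, a nuclease that trims the telomerase RNA (0.42), and Pinx1, a telomerase inhibitor (0.39). The limma adjusted p of the 9 lay between 0.00483 (Brca2) and 0.0417 (Pinx1).

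Atr had 10.27 and 10.63 in serial transplant, 10.49, 10.51 and 10.45 in young long culture, and 9.79, 9.42 and 9.89 in young short culture, with all long-culture arrays above all short-culture arrays. Atr, Wrn and Brca2 were called in young long against young short culture in all 13 separate alternatives, which leave out each array of these groups in turn. Dropping young long-culture replicate 1, 2 or 3 left a count of 3, 5 or 3 in place of 9. In these fits 4.78%, 7.72% or 3.77% of all probe sets were called, in place of 11.3%. Dropping young short-culture replicate 2 left 4 (Wrn, Exo1, Atr and Brca2), where 7.92% of all probe sets were called. In serial transplant against young short culture 6 rose and none fell, with a median of 0.13 log2 units over the 48. Of all probe sets 3.58% rose, and 6.09% of those brighter than the median. The 6 were Atr (0.75), Wrn (0.65), the helicase Recql4 (0.60), Brca2 (0.58), Xrcc6 (0.55) and Pinx1 (0.48), with limma adjusted p from 0.00618 to 0.0433. The count of 6 fell without serial-transplant replicate 2, as did the calls over the whole table. That fit leaves 1 array in the group. Serial transplant against young long culture called none of the 48 by limma. An unadjusted p under 0.05 was found for 4 of the 48 and 7.18% of all probe sets.

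**Figure D4:**
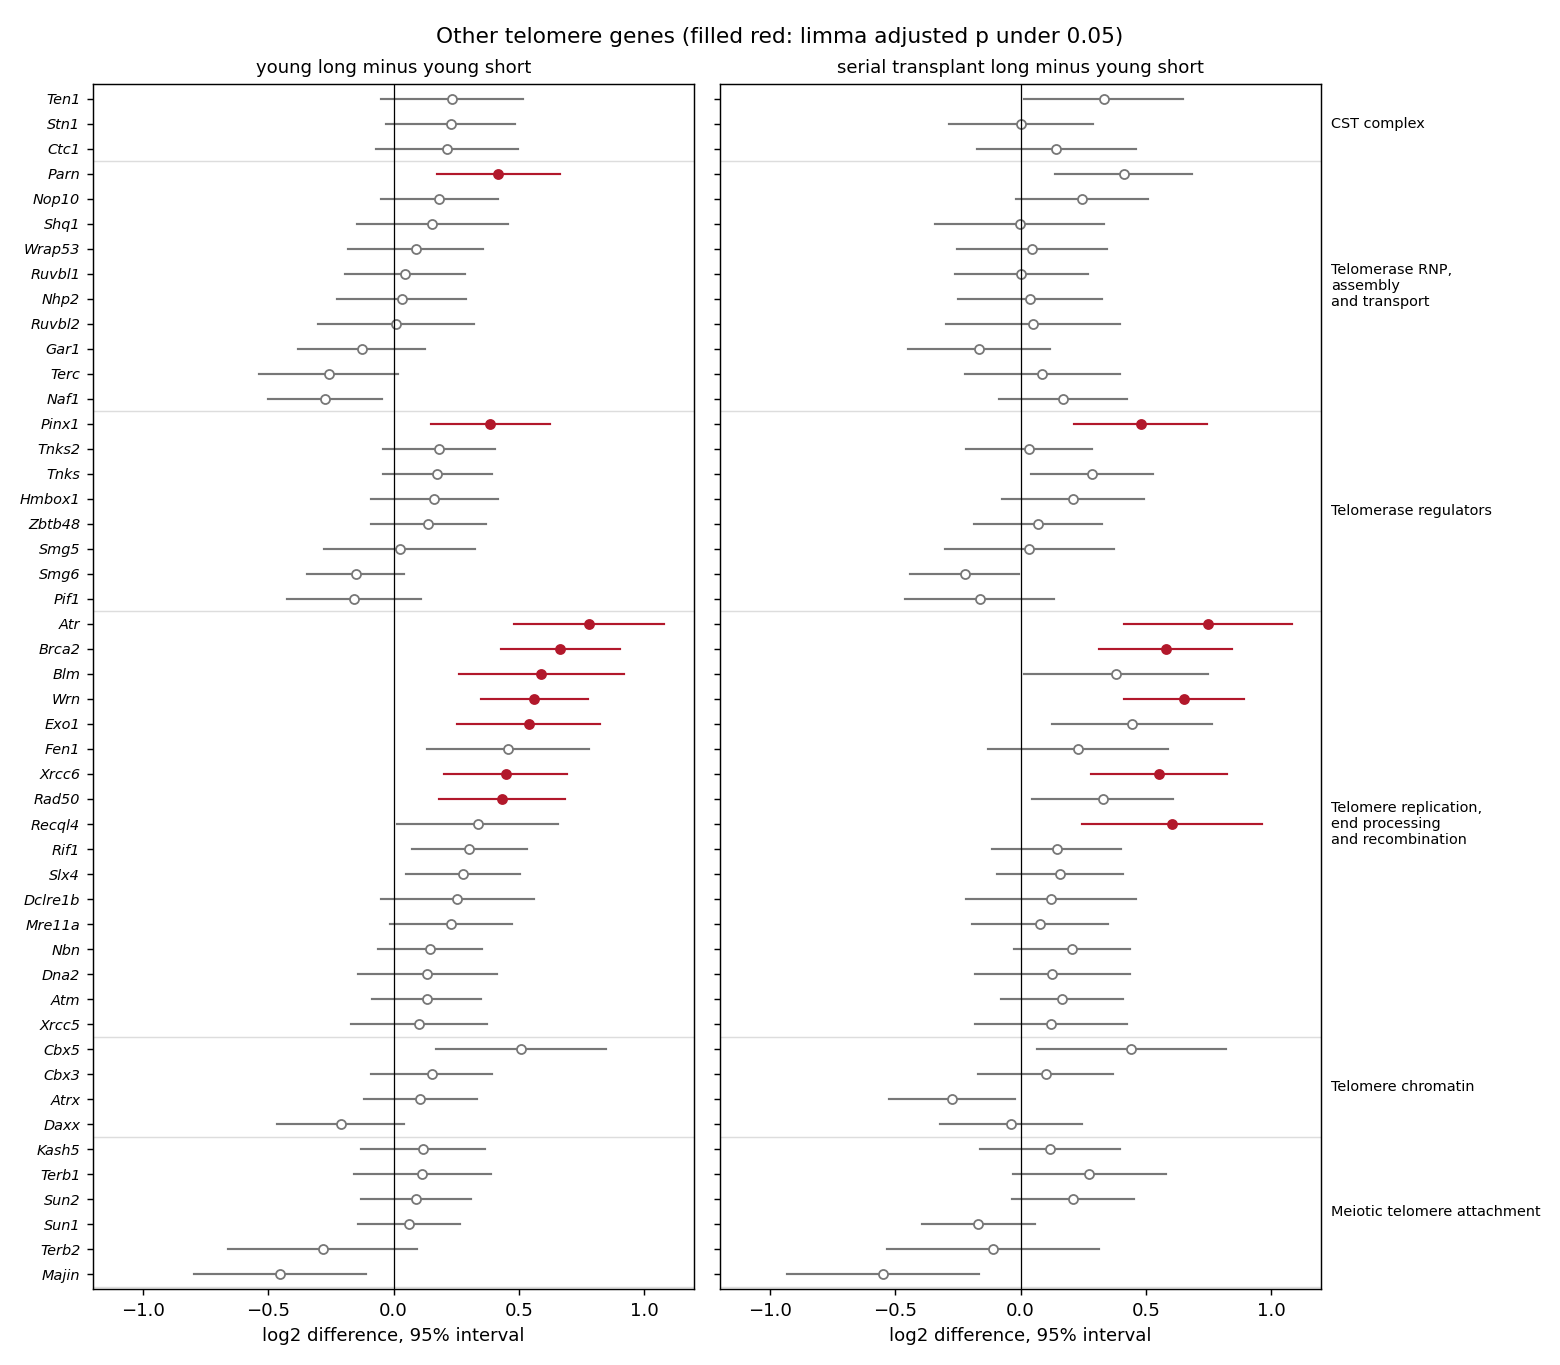
Log2 difference of the 48 other telomere genes from young short culture, 1 row a gene grouped by role, for young long culture (left) and serial-transplant long culture (right), with 95% intervals from limma and filled red points for adjusted p under 0.05. The called genes, 9 on the left and 6 on the right, all lie to the right of 0 and most belong to telomere replication and repair.

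Calls among partners of telomerase itself were few and near the background. Against young short culture, the background was 11.3% of all probe sets for young long culture and 8.74% for serial transplant. None of the 3 genes of the CST complex, which ends telomerase action and fills in the second strand, passed in any comparison: Ctc1, Stn1 and Ten1 stood 0.21 to 0.23 log2 units higher in young long than in young short culture (limma adjusted p = 0.326, 0.249 and 0.286). Of the 10 genes of the telomerase particle and its assembly, Parn alone passed in young long against young short culture and none passed in the other comparisons. Differences in that first comparison were 0.18 for Nop10, 0.03 for Nhp2 and -0.13 for Gar1, which with Dkc1 form the protein core around the RNA. They were 0.09 for Wrap53, which brings the enzyme to Cajal bodies, 0.15 for Shq1, a chaperone of dyskerin, and 0.05 and 0.01 for the assembly ATPases Ruvbl1 and Ruvbl2. The template RNA Terc had 7.41 and 7.33 in serial transplant, 6.82, 7.18 and 7.08 in young long culture, and 7.07, 7.38 and 7.41 in young short culture. It was 0.35 log2 units higher in serial transplant than in young long culture and -0.26 in young long minus young short culture, neither past the threshold (limma adjusted p = 0.650 and 0.223), and the labelling of an RNA without a poly(A) tail on these arrays was not examined. Among telomerase regulators 1 of 8 rose in each comparison with short culture, Pinx1, and none of the 4 telomere chromatin genes or the 6 genes of meiotic telomere attachment passed in any of the 3 comparisons.

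Markers of other cells and of division moved with the same comparisons. In young long against young short culture 12 of 16 fibroblast genes fell, with a median of -0.86 log2 units, and 9 of 17 genes of the G2 and M phases rose, with a median of 0.48. In serial transplant against young short culture 13 of 16 fibroblast genes fell (median -1.15) and 4 of 17 division genes rose (median 0.35). Of all probe sets 5.83% fell and 5.44% rose in the former comparison, and 5.15% fell and 3.58% rose in the latter. The median level of the fibroblast list was 9.46 to 10.44 in serial transplant, 10.36 to 10.47 in young long culture and 10.80 to 11.62 in young short culture, and 14 of its 16 genes had means over the probe set median. The median level of the division list was 9.96 to 10.04 in serial transplant, 10.05 to 10.30 in young long culture and 9.26 to 9.80 in young short culture. Their part in the differences of the telomere genes was not tested.

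Markers of the labelled cell type had means over the median of all probe sets, but so did most fibroblast markers. All 14 genes of undifferentiated spermatogonia, all 6 germ cell genes and 14 of 16 fibroblast genes had means over that median. Other cell types had smaller shares, with 3 of 6 Sertoli, 1 of 4 Leydig, 1 of 7 macrophage and leukocyte, and 0 of 4 endothelial genes. A mean over the median therefore does not separate germ cells from fibroblasts. Of the 14 spermatogonial genes 3 rose and 3 fell in young long against young short culture, and 2 rose and 3 fell in serial transplant against young short culture. Of all probe sets 5.44% rose and 5.83% fell in the former, and 3.58% rose and 5.15% fell in the latter. Germ cell genes rose in 2 and 1 of 6 cases in these comparisons, in that order. Macrophage genes fell in 4 of 7 and Leydig genes in 2 of 4 in both. For Sertoli genes 1 of 6 rose in young long culture, 1 rose and 1 fell in serial transplant, and no endothelial gene passed in either. No marker of any list passed between serial transplant and young long culture.

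**Figure D5:**
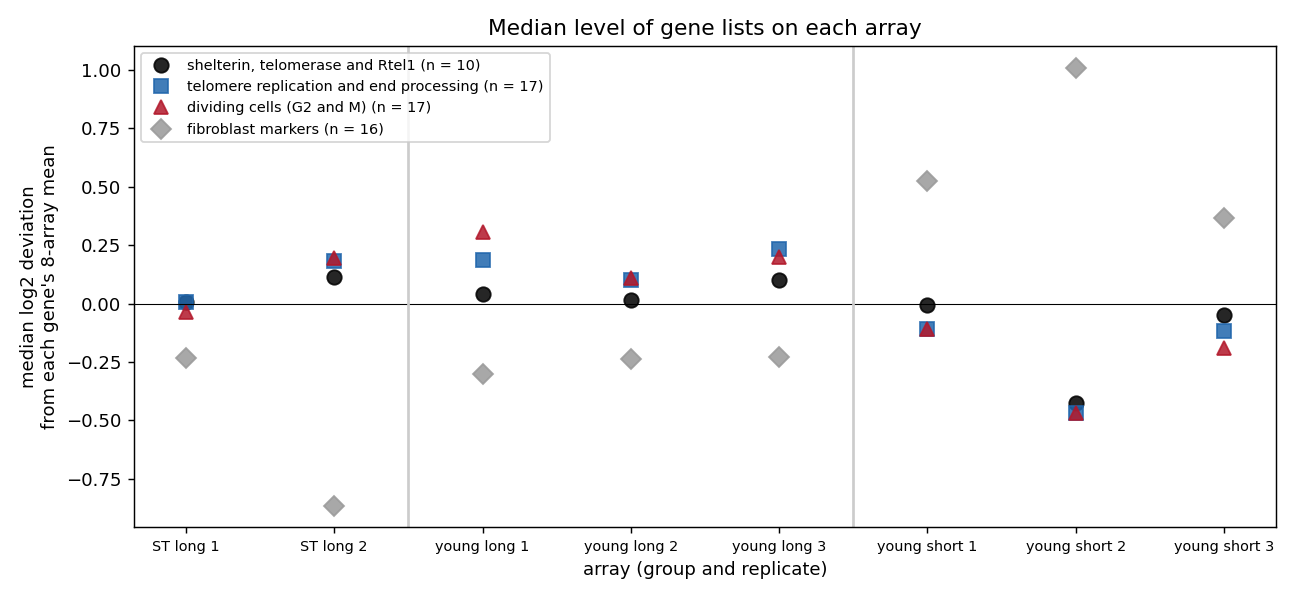
Median deviation of 4 gene groups from their means over all arrays, in log2 units, on each array in the order serial transplant long culture, young long culture and young short culture, with a line at 0. On the second young short-culture array fibroblast genes are at 1.01, division genes and telomere replication genes both at -0.47, and the shelterin and telomerase genes at -0.42.

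For the genes called and for Tert, the genes with the nearest pattern over the 8 arrays were sought among 10576 genes brighter than the median. Likeness was the root mean square difference of log2 values, each centred on its own mean. Nearest to Pot1a were Dcaf11 (0.0259), Mpp6 (0.0293) and Spint2 (0.0311). Nearest to Terf2 were Pde4a (0.0426), Mbtps1 (0.0442) and Ece1 (0.0521), and nearest to Tert were Ppp1r26 (0.0447), Tubgcp6 (0.0453) and Csrnp2 (0.0547). For scale, the values of Pot1a, Terf2 and Tert had SDs of 0.283, 0.225 and 0.361 log2 units over the 8 arrays. All these genes share the same 8 arrays, so a near pattern describes those arrays.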

How the data were processed

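The values are log2 signals, 1 per probe set and array, deposited by the authors. The submitters' processing notes name Partek 6.4 and RMA, a method that subtracts background, aligns arrays to each other and joins the probes of a set. Settings and annotation build: not given in the sources used here. RMA gives no detection call, so the median of all probe sets marks dim signals. Array medians run from 6.90 to 6.98. Of 35557 rows, 6618 were taken from their numbering to be controls and left out, which leaves 28939 probe sets, of which 21789 have 1 gene symbol, 1621 several and 5529 none. Gene numbers gave current symbols and chromosomes through a RefSeq table of GRCm38.p6.

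All 3 pairs of groups were tested with limma 3.58.1 under R 4.3.3, in a fit to all 8 arrays with a coefficient for each group (lmFit, contrasts, eBayes). Tests were two-sided and p-values were adjusted by Benjamini-Hochberg across the 28939 probe sets, at 0.05. The step was tested on simulated data. The genes and lists were chosen with earlier results of these data known. Named were all 10 genes, the called genes of the telomere list (up to 8 a comparison and direction, with CST and telomerase particle genes always) and the 3 nearest patterns of each called gene and of Tert. Promoter motifs and the comparison of both long-culture groups with short culture were chosen after seeing the data. Alternatives were an intensity trend, array weights, only the arrays compared, no dim probe sets, quantile normalization, centring, the replicate number as a block, the mean of a gene's probe sets and each array left out. The labels do not say that replicate numbers pair arrays.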

Additional observations from a re-analysis of the deposited data

Results flagged for a closer look

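Naf1, an assembly factor of the telomerase particle, stood above short culture in one long-culture group and below it in the other. Its log2 signals were 8.91 and 8.89 in serial transplant, 8.36, 8.41 and 8.60 in young long culture, and 8.79, 8.61 and 8.79 in young short culture. Every serial-transplant array lay above every short-culture array and every young long-culture array below, a pattern of 0.263% of all probe sets. Young long-culture replicate 3, at 8.600, lay only just below young short-culture replicate 2, at 8.605. Naf1 was picked out from these same data, so that share does not measure how rare such a gene is. The difference between the long-culture groups was 0.44 ± 0.12 log2 units (SE) and did not pass (limma adjusted p = 0.419). Groups of 2 and 3 arrays are too small for a test of single outlying samples.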

How the results depend on the processing

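Among the values of the 10 genes in the 3 comparisons, no call changed direction under any alternative. Tallies of alternatives in the text leave out fits that repeat another: the mean of a gene's probe sets, and, in young long against young short culture, a dropped serial-transplant array. The call count for the 10 genes in young long against young short culture, 1 in the fit reported, was 3 with array weights (17.5% of all probe sets called), 2 with only probe sets above the median (20.1%), 2 with median centring (11.4%) and 0 to 2 with an array left out. In serial transplant against young short culture it was 0 with only the arrays compared (4.32%), 3 above the median (16.5%), 2 with centring (8.76%) and 0 to 3 with an array left out. Calls at an unadjusted p under 0.05 were counted in young long against young short, serial transplant against young long, and serial transplant against young short culture. The 10 genes gave 3, 2 and 4, and the 48 other telomere genes 16, 4 and 16. Of all probe sets 26.0%, 7.18% and 21.9% passed, in that order. Against short culture 36.0% of the probe sets brighter than the median passed in young long culture and 31.9% in serial transplant. For the F test, the count of 1 was 2 with array weights, 2 above the median, 0 with quantile normalization, 3 with centring, 4 unadjusted and 0 to 3 with an array left out. For the other telomere genes the count of 9 in young long culture was 3 to 9 with an array left out. Its lowest value came without young long-culture replicate 1 or 3, where 4.78% and 3.77% of all probe sets were called, in place of 11.3%. The count of 6 in serial transplant was 3 with only the arrays compared, where 4.32% were called in place of 8.74%. These counts thus fell along with the calls over the whole table. Counts of the F test and of both long-culture groups together were not set beside such shares under the alternatives. Whether they changed apart from the whole table was not tested. Both long-culture groups together gave 0 to 3 calls of the 10 with an array left out. Deviations of same-numbered young long and short culture arrays correlated at 0.0121, 0.0853 and 0.175, and not every array correlated best with its own number, so the numbers were not taken as a pairing. With the replicate number as a block, 2 of the 10 genes passed in each comparison with short culture, Tert being added at limma adjusted p = 0.0439 in young long and 0.0209 in serial transplant. Over the whole table young long against young short culture gave 3260 calls, 5076 with array weights, and, with young long-culture replicate 1 or 3 dropped, 1383 or 1091. Serial transplant against young short culture gave 2528, 1251 with only the arrays compared, 1528 without serial-transplant replicate 1 and 66 without replicate 2. Serial transplant against young long culture gave 0, but 22 with array weights, 15 with only the arrays compared, 4 with the block and 11 without young short-culture replicate 2. The cause of these changes was not tested beyond the smaller number of arrays or probe sets that some alternatives leave. RMA values carry no detection call, so signal over background is not known for single arrays.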
